A study of Caenorhabditis elegans with 2 samples.

Results

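The genes that encode RNA polymerase II, its core promoter factors and the Mediator complex were examined for peaks of a GFP fusion of F23B12.7 in Caenorhabditis elegans. The members are the protein-coding genes named taf-, mdt- or rpb-, with ama-1, tbp-1 and ttb-1, in the Ensembl annotation of WBcel235, which is the build ce11. These are 51 of 19973 protein-coding genes on the nuclear chromosomes. They fall into 12 genes of polymerase subunits, 19 genes of TBP, TFIIB and the TAFs, and 20 genes of Mediator. Chromatin immunoprecipitation and sequencing (ChIP-seq) was done with an antibody against GFP on whole young adult hermaphrodites of strain OP429, of genotype unc-119(tm4063) III; wgIs429, in which F23B12.7 carries a C-terminal GFP-FLAG tag. The 2 samples were biological replicates of this 1 group, with no comparison of conditions, and the age was given as unknown. The transgene is the integrated wgIs429, and all worms came from this 1 strain, so a peak describes the tagged protein and a mixture of all tissues. Neither F23B12.7 itself nor unc-119 had a reproducible peak within 500 bp of its start.

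RNA polymerase II transcribes the protein-coding genes. The TATA-binding protein TBP and the TAFs together form TFIID, which recognises core promoters, and TFIIB bridges TBP and the polymerase. Mediator is a large complex that links sequence-specific transcription factors to the polymerase. In C. elegans many genes lie in operons, where several genes are transcribed from 1 promoter, and the transcripts of most genes are trans-spliced, so an annotated start need not be the point where transcription begins.

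A peak here means a peak of the authors' reproducible set, which passed a threshold on the irreproducible discovery rate (IDR). This set held 1684 nuclear peaks and 23 mitochondrial ones, and only the nuclear ones were used. A gene was counted as having a peak when the summit, the base of highest enrichment in the peak, lay within 500 bp of the annotated gene start. Signal is the authors' value per peak on a scale of their own, with a nuclear median of 52.2 and a lowest value of 38.0 in the set. The pooled list, called on the reads of both replicates, holds 30000 regions that include background, and every nuclear IDR peak was in it with the same coordinates and signal. Depth is unknown, since the lists hold no read totals.

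The sequences under 7 of the members' summits are shown because they are the DNA that the peaks mark, and because those of rpb-4 and taf-10 share runs of bases. Each window is the summit base with 50 bp on either side, 5′ to 3′ on the strand of the member, in ce11. Capitals mark a match, on either strand, to one of the 4 motifs named after the windows, or, at rpb-4 and taf-10, a run of 10 or more bases that both windows hold.
rpb-4 (chrII:7374303-7374403, plus strand): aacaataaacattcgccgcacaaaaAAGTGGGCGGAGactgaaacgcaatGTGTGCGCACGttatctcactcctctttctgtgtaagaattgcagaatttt
taf-10 (chrV:4686860-4686960, plus strand): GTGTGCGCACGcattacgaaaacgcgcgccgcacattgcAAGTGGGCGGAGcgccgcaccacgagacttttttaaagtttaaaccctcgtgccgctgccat
rpb-11 (chrII:14059941-14060041, plus strand): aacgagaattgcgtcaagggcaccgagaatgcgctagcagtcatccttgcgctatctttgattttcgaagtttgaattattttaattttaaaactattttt
rpb-8 (chrIII:4918105-4918205, minus strand): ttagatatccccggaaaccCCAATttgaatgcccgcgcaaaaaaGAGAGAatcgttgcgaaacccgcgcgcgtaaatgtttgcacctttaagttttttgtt
rpb-12 (chrIV:9147104-9147204, minus strand): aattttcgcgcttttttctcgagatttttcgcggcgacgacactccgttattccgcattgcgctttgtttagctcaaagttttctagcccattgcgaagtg
taf-11.3 (chrIII:10505311-10505411, minus strand): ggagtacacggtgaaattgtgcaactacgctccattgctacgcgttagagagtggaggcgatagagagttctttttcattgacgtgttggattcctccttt
mdt-9 (chrIV:13386195-13386295, plus strand): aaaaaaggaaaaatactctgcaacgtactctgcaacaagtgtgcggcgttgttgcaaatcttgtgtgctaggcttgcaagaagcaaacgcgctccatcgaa
None of these 7 windows overlaps an annotated exon. The other 6 members with a peak are described without sequence.

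The rpb-4 and taf-10 windows, on chromosomes II and V, held a run of 12 bases, AAGTGGGCGGAG, and a run of 11 bases, GTGTGCGCACG, on the same strand relative to the gene. The order of the 2 runs differed, with AAGTGGGCGGAG upstream at rpb-4 and downstream at taf-10. AAGTGGGCGGAG was in 2 of the 13 windows at members and in 5 of the 1671 other nuclear IDR windows (0.299%), and in 51 of 19973 promoters of 300 bases (0.255%). GTGTGCGCACG was in 2 of the 13 windows at members, in 0 of the 1671 others and in 6 of 19973 promoters (0.03%). The runs were picked after the windows were seen, so these shares are a description and carry no test.

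The 4 motifs searched were each in at most 1 of the members' summit windows. CCAAT was in 1 of the 13 windows at members (7.69%, that of rpb-8) and in 265 of the 1671 other nuclear windows (15.9%). GAGAGA was also in 1 of 13, again that of rpb-8, and in 272 of 1671 others (16.3%). CACGTG was in 0 of 13 and in 53 of 1671 (3.17%). TATAAA, the letters of a classical TATA box, was in 1 of 13, at taf-4, and in 104 of 1671 (6.22%). In the promoter windows, 250 bases before to 50 after the annotated start, TATAAA was in 1 of the 13 members with a peak (7.69%) and in 421 of the 1329 other genes with one (31.7%). There CCAAT was in 6 of 13 (46.2%) against 541 of 1329 (40.7%), so its lower share in the summit windows did not recur. GAGAGA was in 2 of 13 (15.4%) against 343 (25.8%), and CACGTG in 0 of 13 against 65 (4.89%). Over all promoters TATAAA was in 21 of 51 members (41.2%) and 7558 of 19922 other genes (37.9%). For CCAAT these shares were 41.2% and 45.5%, for GAGAGA 19.6% and 21.8%, and for CACGTG 1.96% and 5.83%. No test was made on these counts. The motifs were read on both strands, and the 2 matches in the rpb-8 window did not overlap. The GC content of the members' windows had a median of 42.6% (24.8% to 57.4%), and that of the other windows 45.5%.

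Of the 51 members, 13 had a peak at their start (25.5%, 95% exact interval 14.3 to 39.6%), and 1329 of 19922 other protein-coding genes had one (6.67%), a ratio of 3.82. Over all protein-coding genes the share was 6.72%. Polymerase subunits had peaks at 7 of 12 genes (58.3%, 27.7 to 84.8%), 8.74 times the share of other genes. TBP, TFIIB and the TAFs had 3 of 19 (15.8%, 3.38 to 39.6%), 2.37 times, and all 3 were among the 17 TAF genes. Mediator had 3 of 20 (15.0%, 3.21 to 37.9%), 2.25 times. The interval of the polymerase subunits overlapped those of the other 2 groups, and no test between groups was made. The intervals of TAFs with TBP and TFIIB and of Mediator include the share of other genes, and that of polymerase subunits does not. No test was made on these lists, which were chosen with earlier results of these data known. The intervals cover counting error and treat genes as independent. Among genes that had a region of the pooled list in reach, 18.0% of other genes had a peak, and the ratio was 1.96 for all members, 3.25 for polymerase subunits, 1.28 for TBP, TFIIB and TAFs and 1.39 for Mediator. The ratios of the last 2 groups also depended on the replicate. With the strongest peaks of replicate 2 alone, the ratio was 0.862 for TBP, TFIIB and TAFs and 0.819 for Mediator, with 1 gene with a peak in each. With those of replicate 1 alone it was 3.30 and 2.35. The polymerase subunits had 8.19 with replicate 2 alone and 7.84 with replicate 1 alone.

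**Figure D1:**
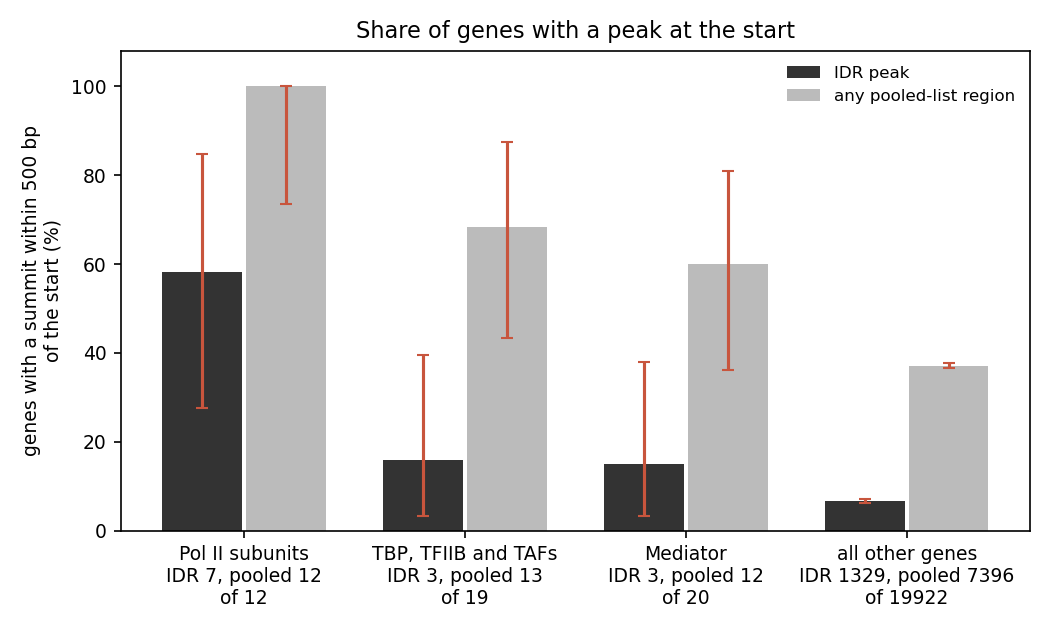
Percent of genes with a summit within 500 bp of the start in the IDR set (dark bars) and in the pooled list (light bars), by group of members and for all other protein-coding genes; error bars are 95% exact binomial intervals, which cover counting error only. The polymerase subunits stand highest in both, with 7 of 12 and 12 of 12 genes.

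The polymerase subunits are taken first. RefSeq describes 5 of them, the products of rpb-5, rpb-6, rpb-8, rpb-10 and rpb-12, as shared by RNA polymerases I, II and III. Of these 5, 4 had a peak (95% interval of the share 28.4 to 99.5%), and of the other 7, 3 had one (42.9%, 9.90 to 81.6%). The split was made after the values were seen, and the intervals overlap widely. Among the shared subunits, rpb-12 had the highest signal, 59.6, at rank 599 of the 1684 nuclear peaks. In the lists of the replicates its region had a signal of 45.1 at rank 356 in replicate 1 and 21.7 at rank 893 in replicate 2. It was high in both lists, and signals are not compared between lists since their scales may differ. The rpb-8 peak had a signal of 52.8 (rank 817), with rank 1607 in replicate 1 and rank 602 in replicate 2. The rpb-10 peak had a signal of 46.5 (rank 1108), with ranks 1238 and 1219 in replicates 1 and 2. The rpb-5 peak was weak within the set, at 40.2 (rank 1530), with ranks 1381 and 1785 in replicates 1 and 2. The exception was rpb-6, with no IDR peak. Its strongest pooled region lay 285 bp upstream with a signal of 26.7, at rank 3416 of 29975, below the lowest IDR peak.

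Among subunits not described as shared, rpb-11, whose product pairs with that of rpb-3 in the assembly of the enzyme, had the strongest peak. Its signal was 77.2 (rank 289), with rank 215 in replicate 1 and rank 799 in replicate 2, and the summit was 94 bp upstream. The rpb-3 peak had a signal of 55.4 (rank 714), with ranks 1035 and 523 in replicates 1 and 2. The rpb-4 peak had a signal of 46.1 (rank 1131), with rank 2201 in replicate 1 and rank 592 in replicate 2. The partner of the rpb-4 product in the stalk of the enzyme is encoded by rpb-7, which had no IDR peak and a strongest pooled region of signal 9.90 at rank 21141, with no region in replicate 1 and one at rank 5672 in replicate 2.

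The genes of the large subunits that form the catalytic centre had no IDR peak in reach. For ama-1, which encodes the largest subunit, this turned on the distance limit. An IDR peak with a signal of 42.8 had its summit 509 bp upstream of the ama-1 start, and ama-1 was the nearest coding start to it. Within 500 bp, ama-1 had only a pooled region of signal 12 (rank 15380), found in replicate 1 at rank 29466 and in no region of replicate 2. Of the members with a peak, rpb-5 was the farthest inside the limit, at 421 bp upstream. For rpb-2, which encodes the second largest subunit, the strongest pooled region had a signal of 19.6 (rank 6094), and the nearest IDR summit was 11025 bp away. The fifth subunit gene without a peak, rpb-9, had a pooled signal of 22.6 (rank 4672), with rank 2496 in replicate 1 and no region in replicate 2.

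TBP and TFIIB had no peak. The strongest pooled region at tbp-1, which encodes the TATA-binding protein, was 1 bp from the start with a signal of 16.1 (rank 8804). At ttb-1, which encodes TFIIB, it had a signal of 9.11 (rank 23823). Both values were far below the 38.0 of the lowest IDR peak.

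Among the TAFs, taf-4, which encodes a subunit of the TFIID core, had the highest signal, 53.8 (rank 776), with its summit 240 bp upstream. It ranked 542 in replicate 1 and 1871 in replicate 2. The taf-11.3 peak had a signal of 41.8 (rank 1401), with rank 1222 in replicate 1 and rank 5546 in replicate 2, the widest gap between the replicates among the 13 members. The taf-10 peak had the lowest signal of the 13, 39.8 (rank 1559), with ranks 1531 and 1331. Just outside the set was taf-6.2, with a pooled signal of 33.5 (rank 2195), at rank 1614 in replicate 1 and rank 6705 in replicate 2. Next among the TAFs without a peak came taf-12 and taf-11.1, both at 22.2.

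The TAF genes with numbered copies differed in what lay at their starts. Of the 3 genes that RefSeq names TFIID subunit 11, taf-11.3 had an IDR peak, taf-11.1 had a pooled region of 22.2, found in replicate 1 but not in replicate 2, and taf-11.2 had none. Of the pair related to TAF6, taf-6.2 had the region of 33.5 and taf-6.1 had none. Of the pair with the conserved region of TAFII55, taf-7.2 had a region of 15.8 and taf-7.1 had none. Each of the 3 families thus held a gene with a pooled region and a gene without one. A pooled region lay at 64.7% of all TAF genes and at 37.1% of other genes. With so few copies, no trait of the families is read from this mix.

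Among the Mediator genes, mdt-26 had the highest signal of all 51 members, 82.0 (rank 238, chromosome II, 5661098 to 5661453). It ranked 182 in replicate 1 and 575 in replicate 2, high in both. Its summit was 95 bp downstream of the annotated start, and the other 12 members had theirs upstream. RefSeq describes its product by a TFIIS N-terminal domain, which the Mediator subunit MED26 of mammals carries. The mdt-22 peak had a signal of 48.8 (rank 978), 24 bp upstream of the start, with ranks 1109 and 1963 in replicates 1 and 2. The mdt-9 peak had a signal of 48.4 (rank 1001), with rank 794 in replicate 1 and rank 3467 in replicate 2. The name mdt-9 needs care. RefSeq names the product of mdt-9 guanine nucleotide exchange factor MSS4, and gives the name Mediator complex subunit 9 to the overlapping gene Y62E10A.23. The 2 genes lie on the same strand with starts 56 bp apart, and the summit was nearer to that of Y62E10A.23, at 79 bp against 135 bp. Of the 17 Mediator genes without a peak, mdt-1.2 had the highest pooled signal, 21.2 (rank 5238).

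**Figure D2:**
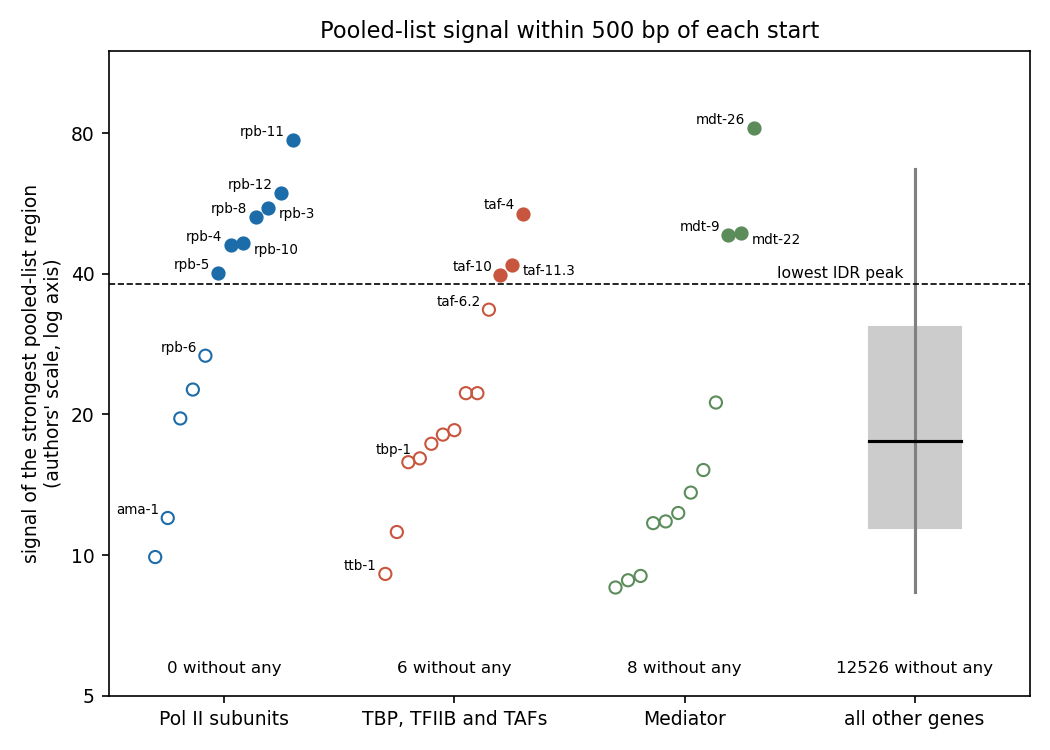
Signal of the strongest pooled-list region within 500 bp of each member's start, by group, on a log axis, with filled points for members with an IDR peak and open points for members without; the grey box and line give the quartiles and the 5th to 95th percentiles of all other genes with a region. The 13 filled points lie between 39.8 and 82.0, above the lowest IDR peak at 38.0, and taf-6.2 is the nearest below at 33.5.

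The pooled list held a region at 37 of the 51 members (72.5%, 58.3 to 84.1%), and at 7396 of 19922 other genes (37.1%), where all protein-coding genes had 37.2%. All 12 polymerase genes had one, as did 13 of the 19 genes of TBP, TFIIB and TAFs and 12 of the 20 Mediator genes. These shares include regions that the authors listed as background. The 24 members with a region and no IDR peak had a median signal of 15.5 (8.52 to 33.5), and the 6067 other genes of this kind had 14.9. So the weak regions at members were close in level to those elsewhere. The medians by group were 19.6 over 5 polymerase genes, 17.7 over 10 genes of TBP, TFIIB and TAFs, and 11.8 over 9 Mediator genes. The 5 with the highest signal among all 24 were taf-6.2, rpb-6, rpb-9, taf-12 and taf-11.1.

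No region of the pooled list was in reach of 14 members (27.5%), against 62.9% of other genes. They were taf-1, taf-5, taf-6.1, taf-7.1, taf-11.2 and taf-13 among the TAFs, and mdt-6, mdt-18, mdt-19, mdt-20, mdt-21, mdt-27, mdt-29 and mdt-31 in Mediator. Of these, taf-1 encodes the largest TFIID subunit, and mdt-6 and mdt-31 encode subunits conserved from yeast to mammals. A single replicate had a weak region at 3 of them: taf-5 with a signal of 9.61 in replicate 1, and mdt-21 and mdt-27 with 3.49 and 3.60 in replicate 2. The other 11 had no region in any of the lists. An absent region means no call among the 30000 listed, not an absence of the protein.

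Within the reproducible set the peaks at members were of middling strength. Their signals ran from 39.8 to 82.0 with a median of 48.8, and the other 1329 genes with a peak ran from 38.1 to 310 with a median of 53.9. In rank, the median member peak had more signal than 41.9% of the nuclear peaks, and the median other gene's peak more than 54.2%. Of the 13, 6 reached the nuclear median of 52.2, namely mdt-26, rpb-11, rpb-12, rpb-3, taf-4 and rpb-8. The 13 genes had 13 different peaks, none with its summit within 500 bp of a tRNA, snoRNA or snRNA gene.

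The replicates ranked the peaks at members differently. As many peaks as the IDR set holds, 1707, were taken from the top of each replicate's list. Those of replicate 1 reached 13 members, where all protein-coding genes had a share of 6.42%, and those of replicate 2 reached 8 members, with a share of 6.13% over all protein-coding genes. Of the 13 members with an IDR peak, 12 were among the strongest in replicate 1 (92.3%) and 8 in replicate 2 (61.5%), and 7 were in both (53.8%). For the other 1329 genes with an IDR peak the shares were 81.5%, 72.9% and 58.9%. The member missing from replicate 1 was rpb-4. Those missing from replicate 2 were rpb-5, taf-4, taf-11.3, mdt-9 and mdt-22. Among the strongest in replicate 1 there was also taf-6.2, which has no IDR peak.

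**Figure D3:**
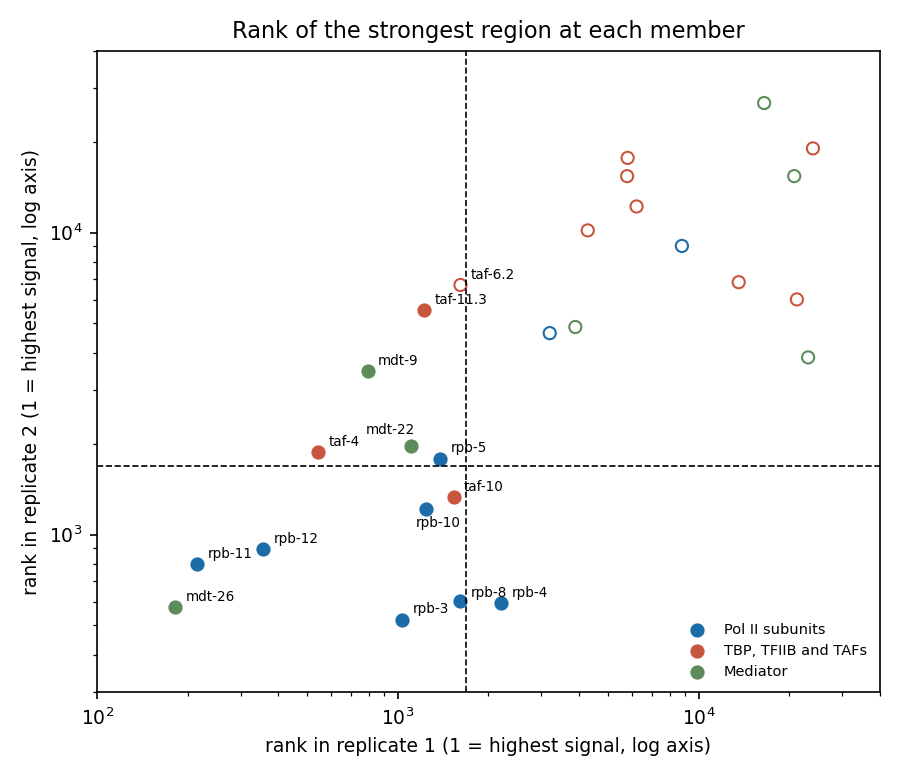
Rank of the strongest region within 500 bp of each member's start in replicate 1 and replicate 2 (1 is the highest signal, log axes), for the 27 members with a region in both lists; filled points have an IDR peak, open points do not, and dashed lines mark the nuclear peaks among the 1707 strongest of each list. Of the filled points, 7 lie in the lower left corner, 5 lie above the horizontal line and rpb-4 lies right of the vertical one.

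Summits at members lay just upstream of the start, as at other genes. The median position was −147 bp over the 13 members, with quartiles of −193 and −111 bp, and −193 bp over the 1329 other genes, with quartiles of −288 and −108 bp. The summit was upstream at 12 of 13 members (92.3%) and at 1222 of 1329 other genes (91.9%). The polymerase genes lay between −421 and −94 bp. The 3 Mediator genes lay at −135, −24 and 95 bp.

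**Figure D4:**
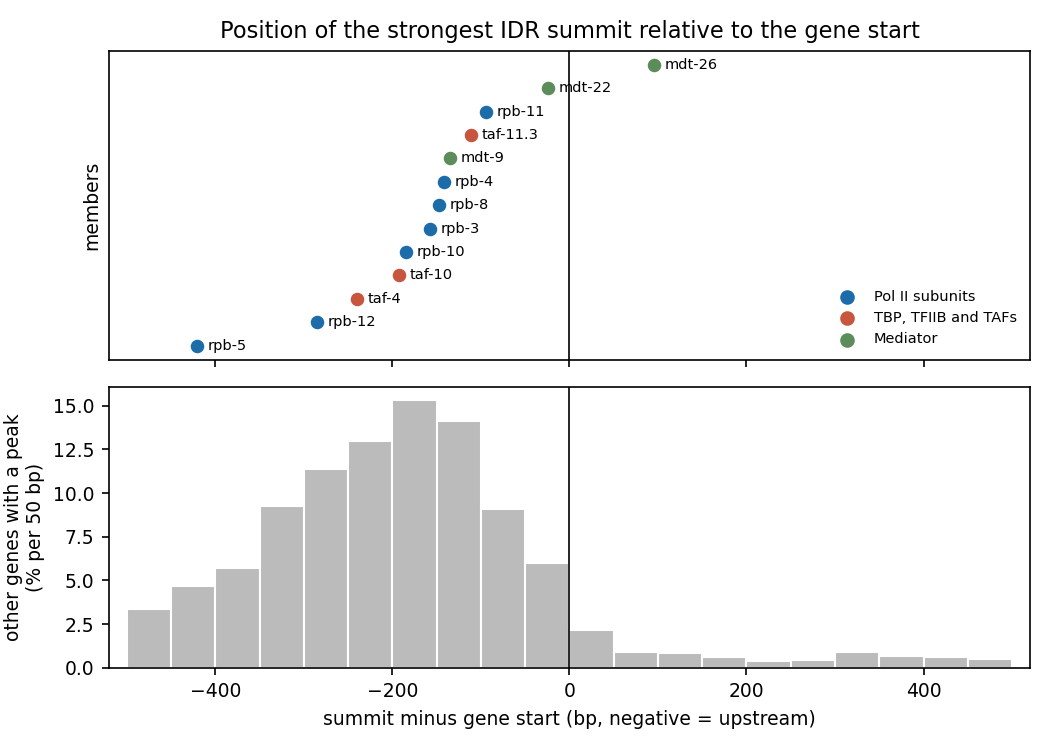
Position of the strongest IDR summit relative to the gene start in bp, negative upstream, for each of the 13 members with a peak (top, coloured by group) and as a histogram of the 1329 other genes with one (bottom, percent per 50 bp). All members but mdt-26 lie left of the start, rpb-5 farthest at −421 bp.

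More than 1 gene shared many of these peaks. At 7 of the 13 members the summit was also within 500 bp of another coding start (53.8%), as at 663 of the 1329 other genes with a peak (49.9%). In all 7 a start on the opposite strand was in reach, so the peak lay between divergent genes or close to such a pair. The divergent neighbours were pas-4 at rpb-3, which encodes an alpha subunit of the proteasome, mtch-1 at rpb-4, which encodes a mitochondrial carrier, Y37E3.1 at rpb-10, aly-2 at rpb-12, urm-1 at taf-11.3, which encodes a ubiquitin-related modifier, ift-43 at mdt-26, which encodes a protein of intraflagellar transport, and Y62E10A.20 at mdt-9. The neighbour's start was nearer to the summit than the member's at rpb-3 (120 bp against 157 bp from the member) and rpb-10 (110 bp against 185 bp), and at mdt-9 as given above. The peak data do not assign a summit to either gene. The remaining 6 members with a peak, rpb-5, rpb-8, rpb-11, taf-4, taf-10 and mdt-22, had no other coding start in reach.

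Many members lay in possible operons. A gene was called a possible operon member when its start lay within 1000 bp after the end of a gene upstream on the same strand, or when it overlapped the end of such a gene, a rule of position only. The overlap applied to 3 members, mdt-9, mdt-29 and mdt-31. This held for 27 of the 51 members (52.9%), against 30.8% of other genes, and for 5 of 12 polymerase genes, 8 of 19 genes of TBP, TFIIB and TAFs and 14 of 20 Mediator genes. Of the 24 members outside possible operons 9 had a peak (37.5%), and of the 27 inside 4 had one (14.8%). Other genes had 7.51% outside and 4.78% inside.

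The first gene of the possible operon was then examined for the 27, a step added after the values were seen. It had an IDR peak for 9 of them (33.3%, 16.5 to 54.0%), against 12.3% of the other genes inside possible operons. For 6 of these the member itself had none. For mdt-9 the peak at the first gene, Y62E10A.23, was its own peak of signal 48.4 counted again. The first gene for tbp-1 was T20B12.3, which RefSeq names nucleolar complex associated 4, with a peak signal of 53.7. For mdt-11 it was wip-1, with a signal of 150, higher than at any member. For mdt-17 it was prmt-1, which encodes an arginine methyltransferase, with 69.9, and for mdt-6 it was Y57E12AL.6, with 56.2. For mdt-29 it was pdr-1, the parkin gene of the worm, with 44.5, and for mdt-21 it was immp-1, with 41.4. Starts of other genes lay nearer to the summits counted at prmt-1, Y57E12AL.6 and pdr-1. They were those of cdkr-3 at 135 bp, Y57E12AL.1 at 5 bp and cyk-4 at 142 bp. With the peaks at first genes counted, 19 of 51 members (37.3%) had a peak at their own or the first start, and 10.2% of other genes. Mediator then had 8 of 20 genes with a peak, against 3 of 20 by their own starts. Whether these genes are transcribed from the first start was not tested.

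With the distance raised to 1000 bp, 18 of 51 members (35.3%) had an IDR summit in reach, against 8.4% of other genes. Beyond 500 bp, 5 of the 38 members without a peak had an IDR summit within 1000 bp. These were ama-1 at −509 bp, mdt-19 at −749 bp, taf-12 at −806 bp, mdt-6 at −911 bp and mdt-27 at 997 bp. The summit was nearer to the start of another gene for mdt-19, where it was 270 bp from that of apb-1, and for mdt-6, where it was 5 bp from that of Y57E12AL.1. The summit for mdt-6 is that of the peak of signal 56.2 counted above at Y57E12AL.6. For 20 of the 38 the nearest IDR summit was over 10000 bp away. The share of other genes at that distance was not counted, so the members cannot be called near or far by it.

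Members with a peak were mostly short genes. Their median annotated length was 797 bp over 13 genes, against 2796 bp over the 38 members without a peak, while other genes had 2179 bp with a peak and 2019 bp without. Of the 25 members of up to 2000 bp 11 had a peak (44.0%), and of the 26 longer ones 2 had one (7.69%), taf-4 and mdt-26. Other genes had 6.18% and 7.15%. Within the groups the shares were 7 of 10 and 0 of 2 for polymerase genes, 2 of 7 and 1 of 12 for TBP, TFIIB and TAFs, and 2 of 8 and 1 of 12 for Mediator. The limit of 2000 bp was set after the lengths were seen, and no test was made.

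**Figure D5:**
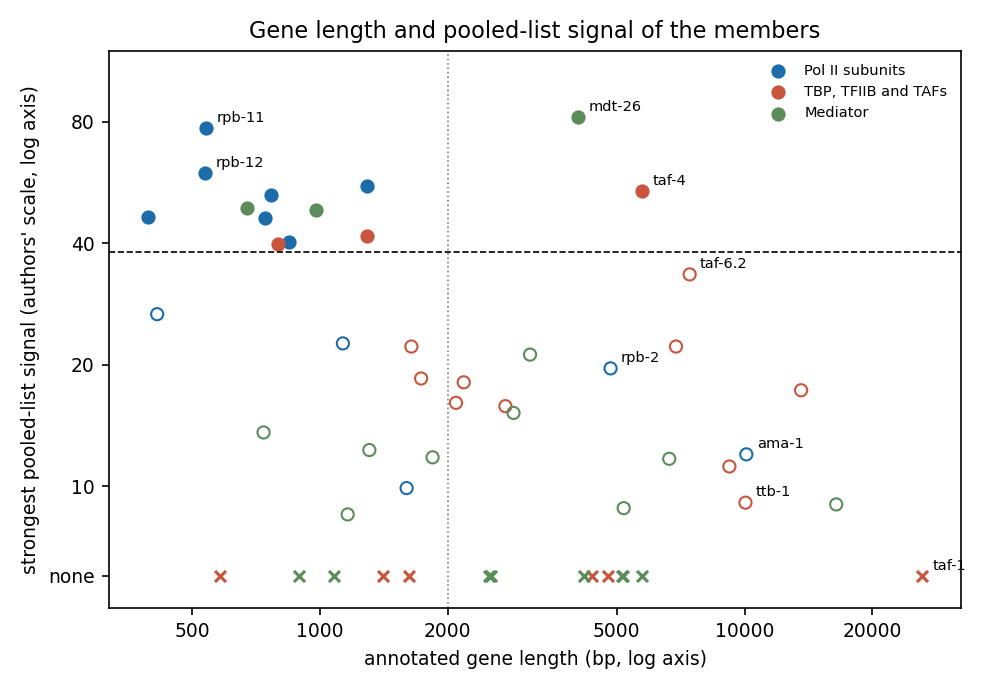
Annotated gene length in bp and signal of the strongest pooled-list region within 500 bp of the start for all 51 members, both on log axes, coloured by group; filled points have an IDR peak, open points a pooled region only, crosses no region, the dashed line is the lowest IDR peak and the dotted line 2000 bp. Of the 13 filled points 11 lie left of the dotted line, with taf-4 and mdt-26 to its right.

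The members with a peak were spread over the chromosomes as 4 of 10 on I, 4 of 11 on II, 2 of 13 on III, 2 of 6 on IV, 1 of 7 on V and 0 of 4 on X. Other genes had a peak at 9.27% of starts on I, 6.75% on II, 10.5% on III, 7.51% on IV, 4.25% on V and 3.56% on X. Chromosome III, with the highest share among other genes, held 13 members, 2 of them with a peak, rpb-8 and taf-11.3.

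Genes of related machinery were counted in the same way, beside the 6.72% over all protein-coding genes. The Mediator subunits that carry other names had 2 of 9, at cic-1, which encodes cyclin C of the Mediator kinase module (signal 42.0), and sop-3 (41.0). The kinase of that module, encoded by cdk-8, had a pooled signal of 8.12, and let-19 and dpy-22, which encode its other subunits, had no region. The other general transcription factors had 2 of 18, at cdk-7 (63.9), the kinase of TFIIH, and pqn-51 (49.1), which encodes a large subunit of TFIIA. Factors of elongation and of the polymerase tail had 4 of 22, at ccnk-1 (56.8), hmg-4 (53.7), pinn-1 (49.7) and pafo-1 (45.3), where rtfo-1 and cdk-9, the kinase of the elongation factor P-TEFb, were just below the set with pooled signals of 37.9 and 37.4. RNA polymerases I and III had 2 of 14, at rpac-19 (53.3), a subunit common to both enzymes, and tftc-1 (40.1), a TFIIIC subunit. Histone acetyltransferases and their partners had 3 of 8, at pcaf-1 (61.2), hat-1 (58.9) and mys-1 (44.1). The shares of these 5 lists ran from 11.1% to 37.5%. The interval of the acetyltransferase list (8.52 to 75.5%) lay above 6.72%, and the intervals of the other 4 lists included it. Of the names drawn up for the acetyltransferase list, 4 matched no gene and were not counted, the most of any list. The 5 lists were small, and their intervals overlapped those of all 3 groups of members. The least overlap was between the polymerase subunits (27.7 to 84.8%) and the other general transcription factors (1.38 to 34.7%), and no order among the lists was drawn from these counts.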

How the data were processed

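Peak lists from ChIP-seq of 1 group, with 2 biological replicates, were used in the build ce11. Per the file manifest deposited with the samples, each list of 30000 peaks and background regions was derived from alignments and a control, and the IDR peaks from the 2 replicate lists and the pooled list. No source used here names the peak caller, the IDR threshold or the kind of control. The signal and the −log10 q-value of each peak are the authors' deposited values. Signal was ranked within a list and not compared between lists. The ce10 lists were not used here.

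Summits (start plus offset) were matched to Ensembl release 115 gene starts, with gene names missing there and protein descriptions taken from RefSeq, in Python 3.11.15 with pandas 2.3.3. The 6 nuclear chromosomes of the lists fit the reference lengths. Shares carry 95% exact (Clopper-Pearson) intervals. Intervals cover counting error only. The matching was tested on simulated peaks. The members and lists were chosen with earlier results of these data known. Named genes are all members with a peak, ama-1, tbp-1, ttb-1, the 5 others of highest pooled signal, those with no pooled region, the neighbours in reach of a member's summit, and up to 4 genes with a peak per related list. The other genes named (rpb-2, rpb-7, mdt-1.2, mdt-11, mdt-17, taf-7.2, apb-1, Y57E12AL.1, cdkr-3, cyk-4, cdk-8, let-19, dpy-22, rtfo-1, cdk-9 and the first genes of possible operons) were chosen after their values were seen. Of the names in the related lists, 9 matched no gene. Alternatives were other distances, any transcript start, the nearest start, stronger peaks, 1 replicate alone, genes with a pooled region as background, removal of possible operon members, ranking by q-value and, added after the data were seen, the first gene of a possible operon.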

Additional observations from a re-analysis of the deposited data

How the results depend on the processing

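With genes that have a pooled region in reach as background, the ratio to other genes fell to 1.96 for all members, 3.25 for polymerase subunits, 1.28 for TBP, TFIIB and TAFs and 1.39 for Mediator, since the share of other genes with a peak was then 18.0%. Leaving out 1 replicate gave 2.57 to 4 for all members, 7.84 to 8.19 for polymerase subunits, 0.862 to 3.30 for TBP, TFIIB and TAFs and 0.819 to 2.35 for Mediator, with both values under 1 from the strongest peaks of replicate 2 alone. The cause was not tested. In the other settings the ratios were 3.28 to 5.18 for all members, 5.72 to 10 for polymerase subunits, 1.47 to 3.79 for TBP, TFIIB and TAFs and 1.40 to 4.44 for Mediator, within the counting interval of each. The ratios with 1 replicate left out also lay within these intervals, as did 1.28 and 1.39. Only 1.96 for all members and 3.25 for polymerase subunits lay below them. The nearest start alone left 10 members with a peak, without rpb-3, rpb-10 and mdt-9, and 250 bp left 11, without rpb-5 and rpb-12. The median rank of the members' peaks was 30.9% by q-value and 41.2% to 46.7% elsewhere. Most members' peaks shared 1 value of −log10 q, 2.68, from rpb-4 at signal 46.1 to mdt-26 at 82.0. The 30.9% is the lowest place of that tie, so it does not show a lower standing by q-value. Within 1000 bp 88.2% of members had a pooled region, against 48.4% of other genes. No paired analysis was possible because there was 1 group. Depth is unknown, so it cannot be said what weaker peaks the replicates could have shown.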
